A study of Mus musculus with 16 samples.

Results

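The late stage of osteoclast formation was described by setting 2 arrays of mouse macrophages cultured with RANKL for 48 and 72 h (labelled Late) against the 2 arrays of the same kind of cell at 0 h. These are 4 of the 16 arrays of the series. All 4 came from bone marrow-derived macrophages of male C57BL/6 mice aged 5 weeks. The 48 h and 72 h cells received DW (the control treatment, as the labels abbreviate it), M-CSF and RANKL, and the 0 h cells received DW and M-CSF alone. No array of either group had the dimethyl αKG that the other arm of the series carries. M-CSF is the macrophage growth factor that all of these cells were given, and RANKL is the cytokine that starts osteoclast formation. The late cells thus differ from the 0 h cells both in RANKL and in 48 or 72 h of culture, and these cannot be told apart here. Whether the 2 arrays of a group stand for separate cultures or mice is not in the labels. The p-values thus reflect spread among arrays alone, which may be technical in part. Every fitted group but the 0 h one pairs 2 different times, so this spread also holds change over time. Values are log2 array values. All 22180 genes with a feature of 1 gene symbol were considered, each by its feature with the highest mean, and the 15526 above the lowest 30% of mean array value were tested.

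An osteoclast is a large multinucleated cell made when macrophage precursors fuse, and it is the cell that resorbs bone. It seals off a patch of bone with a ring of actin-rich podosomes, pumps acid into the patch through a vacuolar proton pump (V-ATPase), and digests the exposed collagen with secreted proteases. RANKL acts through its receptor RANK and TRAF adaptors on NF-κB and AP-1 factors. These, together with receptors that signal through ITAM adaptors and calcium, turn on the transcription factor NFATc1 and its osteoclast target genes.

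At the late stage the leading genes for resorption, acid secretion and fusion were far higher. Of oxidative phosphorylation genes 22 of 46 were higher, and of pyruvate-entry and citric acid cycle genes 10 of 29, lists that share some members. Lower were 8 of 22 monocyte and 15 of 22 neutrophil granule genes. By limma with Benjamini-Hochberg adjustment over all genes tested, 519 genes were higher (3.34% of those tested) and 512 were lower (3.30%) in late DW cells than at 0 h. A change of at least 2-fold was seen in 241 of the higher and 245 of the lower genes, and a change of at least 8-fold in 28 and 6. The median log2 difference of all genes tested was -0.00084. List counts below are to be read beside the shares of 3.34% and 3.30%. All 519 and all 512 showed no overlap between the 2 late and the 2 0 h arrays. So did 25.1% of all genes tested upwards and 25.1% downwards, called or not. The counts rest on single arrays: 936 genes were higher and 1243 lower with 48 h left out, 202 and 257 with 72 h left out, 151 and 145 with the first 0 h array left out, and 117 and 134 with the second left out. In each of these fits 1 group keeps a lone array, which is assumed to vary like the other groups. A fit of these 4 arrays alone called 62 genes higher and 53 lower.

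The array at 72 h had the lowest mean correlation with the others, though not with each of them. Its correlation was 0.969 with the αKG array at 72 h, 0.944 with 48 h, 0.943 with 12 h and 0.919 with 24 h. Its mean correlation with the other 15 arrays was 0.928 over the genes tested, that of the 48 h array was 0.96, and the lowest among the other 14 was 0.963. The 48 h and 72 h arrays differed at least 2-fold in 1165 genes (SD of the difference 0.565 log2), and the 2 arrays at 0 h in 9 genes (SD 0.196). Of the 519 higher genes 419 were higher at 72 h than at 48 h, and of the 512 lower genes 322 were lower at 72 h. In the values below the 48 h array is given before the 72 h array.

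The cell label was checked against defining markers. Of 9 osteoclast markers 7 were higher in late cells (Acp5, Atp6v0d2, Ctsk, Dcstamp, Mmp9, Ocstamp and Oscar) and none lower. The other two, Calcr and Itgb3, had their high value at 72 h. Calcr, the calcitonin receptor, stood at 5.31 and 8.99 log2 in the late cells against 3.91 and 3.99 at 0 h (log2 fold change 3.20 ± 0.90 (SE), adjusted p = 0.0581, limma). Itgb3, the β3 chain of the vitronectin receptor, stood at 6.84 and 9.90 against 6.33 and 6.31 (2.05 ± 0.78, adjusted p = 0.159). For Calcr the adjusted p was 0.000478 when the 48 h array was left out, 0.288 when the 72 h array was, and 0.226 and 0.233 when a 0 h array was. For Itgb3 it was 0.00295, 0.763, 0.385 and 0.409 in the same order, and its log2 fold change without the 72 h array was 0.52. The mean level of the 9 markers was 9.50 and 11.17 in late cells and 5.31 and 5.31 at 0 h.

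Of 6 macrophage markers Itgam fell and none rose. Cd68, a lysosomal glycoprotein of macrophages, was at 12.45 and 12.57 against 12.53 and 12.57, and Adgre1, which codes for F4/80, at 10.29 and 11.26 against 11.02 and 11.01. The mean level of the 6 was 10.15 and 10.94 against 11.003 and 11.04. Some lists of markers of other marrow cell types also had signal at 0 h and were lower late. All 3 monocyte markers tested fell, with a mean level of 5.10 and 4.74 against 8.76 and 8.77. All 8 neutrophil markers tested fell, with the list at 5.19 and 4.83 against 7.29 and 7.27. So did 3 of 4 megakaryocyte markers, with the list at 5.80 and 6.07 against 7.85 and 7.95. Which cells gave this signal was not tested. All 5 T and NK cell markers (Cd3e, Cd3g, Cd8a, Klrb1c and Ncr1) lay under the filter on dim genes, and none of the 5 dendritic, 5 stromal or 3 B cell markers tested passed the threshold (limma, 1 of each list at an unadjusted p under 0.05). Of 3 endothelial markers Cdh5 fell, at 5.38 and 4.83 against 6.62 and 6.69 (-1.55 ± 0.33, adjusted p = 0.0185, limma). In these bulk samples fewer cells of a type and less RNA per cell cannot be told apart, and the part of other cell types in the results below was not tested.

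The 2 largest rises of any gene named, Mmp9 and Ctsk, were in genes of bone resorption. Of the 20 listed, all were tested, 13 were higher and 1 was lower, with a median log2 fold change of 1.40 beside -0.00084 for all genes. The proteases led. Mmp9, a gelatinase, was at 11.95 and 12.73 log2 in late cells and 5.38 and 5.49 at 0 h, a log2 fold change of 6.90 ± 0.59 (SE, adjusted p = 0.000193). Ctsk, cathepsin K, which cuts collagen in the resorption pit, was at 11.67 and 12.58 against 5.72 and 5.45 (6.54 ± 0.44, adjusted p = 4.24e-05). For Mmp14, a membrane-bound metalloproteinase, the values were 9.73 and 11.13 against 5.45 and 5.31 (5.05 ± 0.52, adjusted p = 0.000373). Acp5, the tartrate-resistant acid phosphatase used to stain osteoclasts, stood at 11.28 and 11.89 against 6.61 and 6.64 (4.96 ± 0.44, adjusted p = 0.00021). In these 4 genes both late arrays lay at least 4 log2 units above both 0 h arrays, with 72 h above 48 h each time.

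Genes that make and move acid and ions rose as well, apart from Ostm1. Car2, carbonic anhydrase II, which supplies the protons, had 9.05 and 10.68 log2 in late cells and 4.15 and 3.53 at 0 h (6.02 ± 0.56, adjusted p = 0.000236). Slc9b2, a sodium/proton exchanger of osteoclasts, had 9.63 and 11.09 against 5.80 and 6.08 (4.42 ± 0.56, adjusted p = 0.00113). Slc4a2, the anion exchanger that exports bicarbonate, had 8.46 and 9.52 against 7.37 and 7.40 (1.60 ± 0.29, adjusted p = 0.00774). Clcn7, the chloride/proton antiporter of the ruffled border, had 9.28 and 9.91 against 8.36 and 8.44 (1.20 ± 0.25, adjusted p = 0.0147). The gene for its partner Ostm1 did not pass, at 7.64 and 8.51 against 7.85 and 7.79, with the 48 h value below both 0 h values. Vesicle genes were mixed. Snx10, a sorting nexin mutated in some human osteopetroses, rose (1.74 ± 0.29, adjusted p = 0.00573), as did Rab38, a GTPase of lysosome-related organelles (1.93 ± 0.47, adjusted p = 0.0314). Rab27a, another such GTPase, was the member that fell, at 5.64 and 5.89 against 6.85 and 6.71 (-1.02 ± 0.21, adjusted p = 0.0147). Syt7, Rab3d, Rab7, Plekhm1 and Acp2 did not pass. Leaving out 72 h gave 9 higher of the 20, and leaving out either array at 0 h gave 7.

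**Figure D1:**
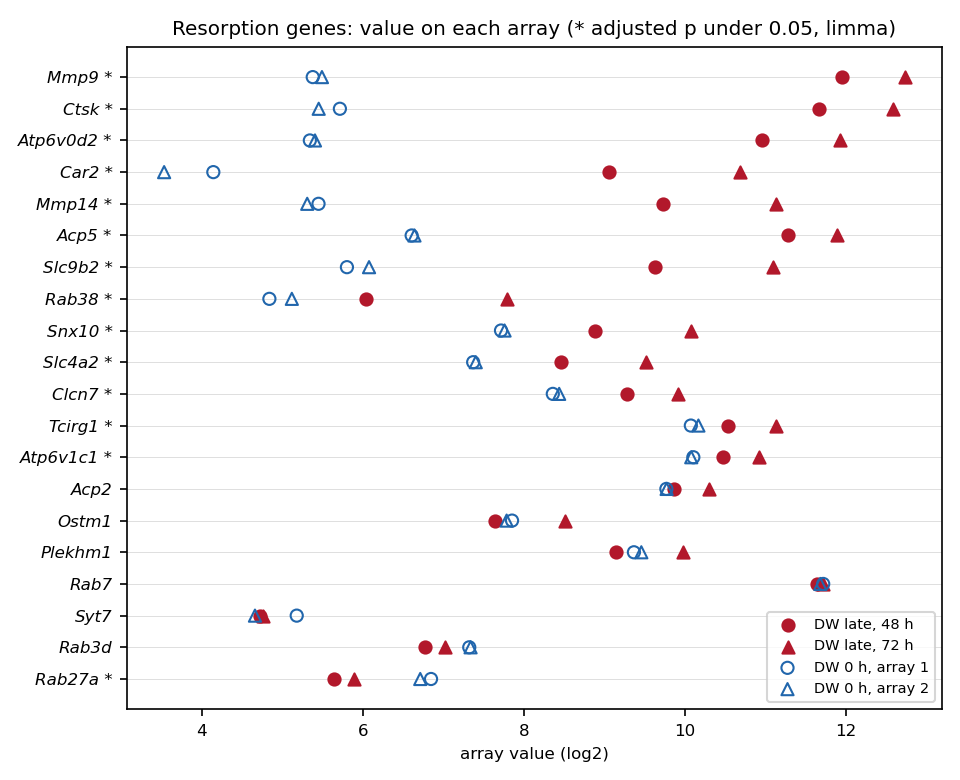
Value of each of the 20 resorption genes on each array (log2, horizontal axis), with late DW arrays at 48 and 72 h as filled symbols, DW arrays at 0 h as open symbols, and an asterisk on genes with adjusted p under 0.05. For Mmp9, Ctsk, Atp6v0d2, Car2, Mmp14, Acp5 and Slc9b2 the filled symbols lie more than 3 log2 units right of the open ones, and Rab27a lies to the left.

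The promoters of Ctsk, Acp5 and Oscar are shown because these genes led the rise and NFATc1 is known to act on all 3. Each run covers 250 bases before and 50 after the annotated start, 5′ to 3′ on the gene's strand, from RefSeq (GRCm38.p6), and capitals mark TGGAAA on either strand, the core letters of an NFAT site. The Ctsk window is chr3:95498960-95499259 (plus strand), the Oscar window chr7:3616108-3616407 (minus strand). Acp5 has 3 annotated starts in the table, and the window shown, chr9:22130549-22130848 (minus strand), is the only one of its 3 that holds the letters.
Ctsk: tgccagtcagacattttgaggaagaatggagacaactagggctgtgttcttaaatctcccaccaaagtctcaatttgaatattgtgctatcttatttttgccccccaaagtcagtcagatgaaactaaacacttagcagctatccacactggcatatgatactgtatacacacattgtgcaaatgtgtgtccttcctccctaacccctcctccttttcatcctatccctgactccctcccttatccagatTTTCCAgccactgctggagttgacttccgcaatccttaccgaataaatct
Acp5: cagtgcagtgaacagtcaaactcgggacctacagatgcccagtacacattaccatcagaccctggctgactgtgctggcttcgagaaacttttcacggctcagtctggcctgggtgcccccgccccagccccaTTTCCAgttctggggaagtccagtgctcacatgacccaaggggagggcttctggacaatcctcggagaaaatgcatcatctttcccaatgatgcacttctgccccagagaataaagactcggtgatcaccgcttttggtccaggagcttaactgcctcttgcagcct
Oscar: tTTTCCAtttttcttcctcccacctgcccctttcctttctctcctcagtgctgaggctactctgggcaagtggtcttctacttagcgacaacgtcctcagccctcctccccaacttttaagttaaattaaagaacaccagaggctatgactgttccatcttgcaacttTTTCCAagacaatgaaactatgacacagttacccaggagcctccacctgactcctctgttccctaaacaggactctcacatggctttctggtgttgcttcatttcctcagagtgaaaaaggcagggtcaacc
Of the leading genes, Slc9b2 and Src also have a window in the table, and neither holds these letters, while Mmp9, Atp6v0d2, Dcstamp, Ocstamp and Car2 are named only. Windows were matched for 12077 of the 15526 genes tested. In the shares below each gene counts by the first start listed for it. For Acp5 that is chr9:22135697-22135996, which holds no TGGAAA, so the Acp5 window shown does not enter those shares.

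The TGGAAA letters stood in 17.8% of 377 windows of higher genes and 12.9% of 402 of lower genes, beside 17.5% of all 12077. The AP-1 letters TGANTCA, on either strand, stood in 5.57% and 6.72%, beside 5.75% of all. Among the 20 windows of genes higher at least 8-fold, TGGAAA stood in 5 and TGANTCA in 0. The letters described next stood in 5 (GAGGAA), 3 (CACATG) and 0 (CACGTG) of these 20. GAGGAA, the core letters bound by PU.1, the master factor of myeloid cells, stood in 26.0% of windows of higher genes and 38.8% of lower genes, beside 27.0% of all. The E-box CACATG, which MITF can bind, stood in 12.2% of either set, beside 9.55% of all, and CACGTG, the E-box of lysosomal genes, in 9.28% of higher and 12.4% of lower genes, beside 9.41% of all. In the last 150 bases before the start, TGGAAA stood in 9.55% of higher and 7.96% of lower genes, beside 8.6% of all, and in 4 of the 20 windows of genes higher at least 8-fold. There TGANTCA stood in 2.92% and 4.98%, beside 3.11%, GAGGAA in 12.5% and 21.1%, beside 13.7%, CACATG in 6.9% and 5.22%, beside 4.6%, and CACGTG in 5.57% and 7.21%, beside 5.7%. In these 150 bases of the same 20 windows GAGGAA stood in 3, CACATG in 2, and TGANTCA and CACGTG in 0. All motifs were searched on both strands. TGGAAA and GAGGAA share the letters GGAA, but no stretch can be both. These are matches of letters in short windows and were not tested.

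The V-ATPase is built from a membrane V0 and a cytosolic V1 sector, and osteoclasts are known to use particular isoforms of some subunits. Of 20 subunit and accessory genes tested, 9 were higher and 1 lower (median 0.62). Atp6v0d2, the d2 isoform of V0, was at 10.96 and 11.93 log2 in late cells against 5.34 and 5.41 at 0 h (6.07 ± 0.58, adjusted p = 0.000248). Atp6v0d1, the widely used d1 isoform, was at 10.35 and 10.42 against 10.48 and 10.43 (-0.072 ± 0.16, adjusted p = 0.837), within 0.2 log2 on all 4 arrays. Among the a isoforms Tcirg1 (a3), which carries the pump to the plasma membrane of osteoclasts, rose, at 10.53 and 11.12 against 10.07 and 10.17 (0.71 ± 0.17, adjusted p = 0.0348). Atp6v0a1 (a1) fell, at 9.04 and 8.95 against 10.16 and 10.08 (-1.13 ± 0.15, adjusted p = 0.0017), and Atp6v0a2 was at 8.49 and 8.12 against 8.35 and 8.43 and did not pass. The isoforms of these subunits thus had unequal changes.

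The other subunits that rose did so by less than Atp6v0d2. Atp6v1b2, a subunit of the V1 head, was at 11.61 and 12.11 against 10.77 and 10.76 (1.09 ± 0.15, adjusted p = 0.00158). Atp6v0b, Atp6v0e, Atp6v1c1, Atp6v1e1, Atp6v1g1 and the accessory gene Atp6ap2 also rose, by 0.53 (Atp6ap2) to 1.12 (Atp6v1e1) log2. Atp6v1d, at 9.71 and 10.63 against 9.03 and 9.01, narrowly missed the threshold (adjusted p = 0.0581). The subunits were mostly higher at 72 h than at 48 h, with a median difference of 0.437 log2, beside -0.015 for all genes tested. The number called higher was 3 with 72 h left out, 2 with either 0 h array left out and 1 in the fit of the 4 arrays alone.

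**Figure D2:**
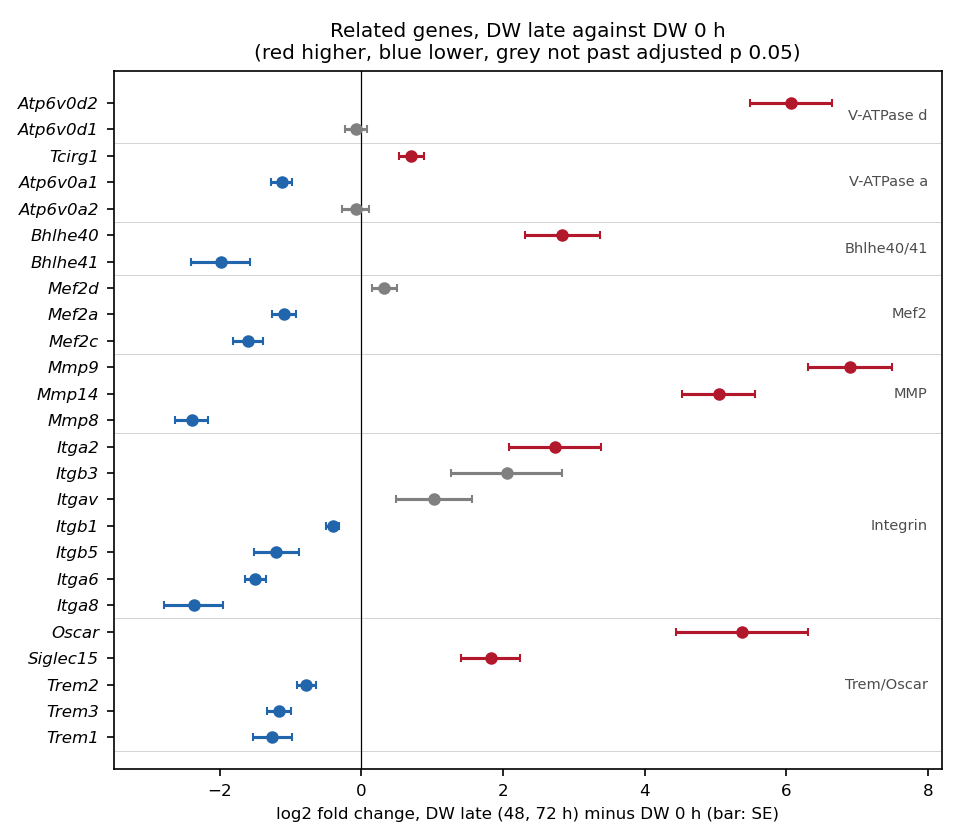
Log2 fold change of late DW cells (48 and 72 h) over 0 h with its standard error (bars) for related genes, in red where higher, blue where lower and grey where the adjusted p was above 0.05. Atp6v0d2 lies near 6 and Atp6v0d1 near 0, Tcirg1 and Atp6v0a1 lie on opposite sides of 0, and so do Bhlhe40 and Bhlhe41.

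For cell fusion, 4 of 16 genes tested rose and none fell. Dcstamp and Ocstamp code for membrane proteins that fusion requires. Dcstamp had 9.72 and 10.58 log2 in late cells and 5.2 and 5.22 at 0 h (4.94 ± 0.47, adjusted p = 0.000248), and Ocstamp had 10.04 and 11.05 against 5.27 and 5.48 (5.17 ± 0.49, adjusted p = 0.000244). Dock5, an activator of Rac, was at 10.01 and 9.92 against 7.48 and 7.55 (2.45 ± 0.32, adjusted p = 0.00129), and Myo10, a myosin of filopodia, at 9.37 and 10.01 against 7.23 and 7.13 (2.51 ± 0.56, adjusted p = 0.0222). General surface proteins of fusion did not pass: Cd47 stood at 9.76 and 9.88 against 9.79 and 9.73, Cd81 at 11.38 and 11.34 against 11.45 and 11.54 and Sirpa at 11.10 and 11.27 against 11.19 and 11.22. The median of the list was -0.052, so the rise lay in few members.

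Podosome and sealing zone genes were split, with 8 higher and 4 lower of 35. The counts were 10 and 6 without the 48 h array, 5 and 3 without the 72 h array, and 5 and 2 without either 0 h array. Scin, the actin-severing protein adseverin, was at 9.48 and 10.46 log2 against 4.35 and 4.78 at 0 h (5.40 ± 0.57, adjusted p = 0.000447), while its relative Gsn, gelsolin, was at 9.70 and 9.84 against 9.89 and 9.96 (-0.16 ± 0.12, adjusted p = 0.476). Src, the kinase without which osteoclasts form no ruffled border, was at 8.88 and 9.69 against 5.70 and 5.84 (3.51 ± 0.28, adjusted p = 0.000117). Myo1d, a class I myosin, was at 7.97 and 10.56 against 5.17 and 5.10 (4.13 ± 0.65, adjusted p = 0.00386), more than 2 log2 higher at 72 h than at 48 h. Cttn (cortactin), Rhou, Pxn (paxillin) and Swap70 rose by 0.71 (Pxn) to 1.31 (Rhou) log2. The genes that fell were Plek, a pleckstrin, at 9.17 and 8.76 against 10.36 and 10.36, the exchange factor Vav3 at 7.54 and 7.26 against 8.64 and 8.56, the kinase Ptk2b (PYK2) at 8.51 and 8.82 against 9.43 and 9.30, and Rac1 at 10.53 and 10.40 against 10.89 and 10.80.

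Of 19 subunits of the integrins, the matrix receptors of podosomes, 5 fell and 1 rose. Itga2, the α2 chain of a collagen receptor, was at 6.22 and 8.86 log2 against 4.83 and 4.78 at 0 h (2.74 ± 0.65, adjusted p = 0.0286), chiefly at 72 h. Itga6 fell to 8.39 and 8.34 against 9.95 and 9.78 (-1.499 ± 0.15, adjusted p = 0.000369) and Itga8 to 5.32 and 4.82 against 7.35 and 7.53 (-2.37 ± 0.42, adjusted p = 0.00686). Itgam, Itgb1 and Itgb5 were the others that fell. Itgav, the partner of Itgb3 in the osteoclast's vitronectin receptor, was at 10.34 and 10.79 against 9.60 and 9.48 and did not pass (adjusted p = 0.306). Without either 0 h array 1 integrin was lower and none higher.

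Among RANK, the ITAM-coupled receptors and their adaptors, 5 rose and 6 fell of 26. Leaving out the 48 h array gave 6 and 5, the 72 h array 4 and 4, and the 0 h arrays 2 and 2 or 1 and 2. Oscar, a collagen-binding receptor of osteoclasts that pairs with an ITAM adaptor, was at 7.71 and 10.88 log2 against 4.06 and 3.78 at 0 h (5.37 ± 0.93, adjusted p = 0.00644). Its 2 late values lay more than 3 log2 apart, and its adjusted p was 0.0655 without the second 0 h array. Siglec15, a sialic acid receptor of osteoclasts, was at 6.85 and 8.69 against 5.88 and 6.02 (1.82 ± 0.42, adjusted p = 0.0262). Traf1, an NF-κB-induced adaptor, was at 9.52 and 8.85 against 5.598 and 6.01 (3.38 ± 0.41, adjusted p = 0.000925). The kinase Fgr and the inhibitory receptor Pirb also rose. Receptors of the TREM and CD300 families fell: Cd300lf to 4.90 and 4.65 against 6.43 and 6.46, Trem3 to 4.81 and 4.49 against 5.98 and 5.66, Trem1 to 5.13 and 4.29 against 6.07 and 5.87 and Trem2 to 9.87 and 9.93 against 10.63 and 10.71. Lilrb4a and the ITAM adaptor gene Fcer1g fell as well, by 0.64 and 0.50 log2.

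Several upstream members of the pathway did not pass. Tnfrsf11a, which codes for RANK, was at 9.47 and 9.21 against 8.71 and 8.74 (adjusted p = 0.571). Traf6, the main adaptor of RANK, was at 7.16 and 8.03 against 7.29 and 7.17, the ITAM adaptor gene Tyrobp at 10.35 and 10.83 against 10.25 and 10.30 and the kinase Syk at 8.47 and 9.24 against 8.15 and 8.32. Of 24 calcium signalling genes none rose and 2 fell: Camk2g, a calmodulin-dependent kinase, to 6.54 and 6.45 against 7.26 and 7.26, and Atp2a3, a calcium pump of the endoplasmic reticulum, to 5.82 and 5.12 against 6.67 and 6.70. Rcan1, a calcineurin regulator, was at 7.85 and 9.25 against 7.16 and 6.99 (adjusted p = 0.0548).

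Of 30 osteoclast transcription factors and coactivators tested 11 rose and 3 fell. Nfatc1 itself was at 9.68 and 10.26 log2 against 8.25 and 8.24 at 0 h (1.73 ± 0.27, adjusted p = 0.00386), a smaller rise than that of several AP-1 and repressor genes. Jdp2, an AP-1 partner, was at 10.49 and 10.52 against 6.84 and 6.63 (3.77 ± 0.84, adjusted p = 0.0225). Prdm1 (Blimp1), which silences inhibitors of osteoclast formation, was at 8.204 and 9.11 against 5.96 and 5.42 (2.97 ± 0.33, adjusted p = 0.0005). Fosl2, a Fos family member, was at 9.87 and 10.51 against 7.68 and 7.64 (2.53 ± 0.28, adjusted p = 0.0005). Nfkb2 and Relb, of the alternative NF-κB pathway, rose by 2.11 and 1.23 log2. Rela and Rel, of the classical pathway, were at 9.75 and 9.81 against 9.86 and 9.72 and 8.66 and 8.99 against 8.64 and 8.55 and did not pass. Fos, at 9.31 and 8.44 against 6.98 and 7.01, did not pass either (adjusted p = 0.271).

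Of 2 paralogous repressors 1 rose and 1 fell. Bhlhe40, of the basic helix-loop-helix class, was at 9.86 and 10.02 against 7.05 and 7.16 (2.84 ± 0.53, adjusted p = 0.00924), and Bhlhe41 at 6.395 and 5.40 against 7.88 and 7.89 (-1.99 ± 0.42, adjusted p = 0.0165). Mef2c and Mef2a fell, to 6.59 and 6.66 against 8.30 and 8.16 and to 9.82 and 10.15 against 11.16 and 10.99, while Mef2d was at 8.32 and 8.87 against 8.30 and 8.24. Spi1, which codes for PU.1, rose by 0.68 ± 0.13, and Mitf was at 7.93 and 7.86 against 7.44 and 7.57 (adjusted p = 0.159). With 72 h left out 4 factors were called higher, and with a 0 h array left out 4 or 5.

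Repressors of osteoclast differentiation were mostly not called: none of 22 rose and 1 fell. Id1, an inhibitor of helix-loop-helix factors, fell to 5.11 and 5.18 against 7.10 and 6.997 (-1.91 ± 0.43, adjusted p = 0.0228), and Id2 was at 8.03 and 7.60 against 9.67 and 9.58 (adjusted p = 0.0587). Irf8, known to hold back osteoclast formation, was at 6.54 and 8.15 against 8.06 and 8.17 (adjusted p = 0.491). Its 48 h value lay below 0 h, and its 72 h value lay between the 0 h values.

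Other genes among the 25 highest have a less settled place in osteoclasts. Akap6, which anchors protein kinase A, was at 7.38 and 8.27 log2 against 3.45 and 3.51 at 0 h (4.34 ± 0.51, adjusted p = 0.000748). Tm4sf19, a tetraspan membrane protein, was at 9.84 and 11.38 against 6.61 and 6.58 (4.02 ± 0.42, adjusted p = 0.000443). Fam102a was at 10.51 and 10.83 against 7.40 and 7.47, and had the smallest standard error of the 25 (3.24 ± 0.19, adjusted p = 2.69e-05). Grk3, a kinase of G protein-coupled receptors, was at 8.32 and 9.27 against 5.36 and 5.50 (3.36 ± 0.29, adjusted p = 0.000193). H2-Q10, a class I MHC gene whose relatives are near-identical in sequence so that its value is uncertain, was at 7.51 and 8.48 against 4.05 and 3.82.

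Some of the highest genes owed much to the 72 h array. Akr1c18, a hydroxysteroid dehydrogenase, was at 6.74 and 9.84 against 4.33 and 3.99 (4.13 ± 0.80, adjusted p = 0.011), Mt3, a metallothionein, at 7.31 and 9.74 against 4.59 and 4.64, and Cd200, an inhibitory surface ligand, at 7.03 and 8.94 against 4.19 and 4.24. Cd4, the T cell coreceptor, was at 7.44 and 10.60 against 4.77 and 4.96 (4.16 ± 1.07, adjusted p = 0.0412). Cd4 had 5.76, 6.79, 9.65 and 8.69 at 3, 6, 12 and 24 h, so it was already high before the late stage. Its late minus intermediate difference was -0.15 ± 1.07 log2 and did not pass. Its adjusted p was 0.28 without the 72 h array and 0.193 and 0.186 without a 0 h array, and the T cell genes Cd3e, Cd3g and Cd8a lay under the filter. F2r, a thrombin receptor, and Rasgrp1, an activator of Ras, had differences of more than 2 log2 between 72 h and 48 h, at 7.10 and 9.57 against 5.45 and 5.49 and 5.23 and 8.05 against 4.27 and 4.04. The rise of Pde2a, a cyclic nucleotide phosphodiesterase, was larger at 48 h (9.34 and 7.59 against 6.599 and 6.495).

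Of 28 lysosomal hydrolases and membrane proteins 3 rose and 3 fell (median 0.017), and the mean level of the list was 9.63 and 10.17 in late cells against 9.80 and 9.82 at 0 h, below 0 h at 48 h and above it at 72 h. Of all genes 3.34% were higher and 3.30% lower. The list's counts were 5 higher and 1 lower without the 48 h array, 0 and 4 without the 72 h array, and 0 and 1 or 0 and 0 without a 0 h array. Arsb, an arylsulfatase, was at 9.73 and 11.28 log2 against 8.65 and 8.61 at 0 h (1.87 ± 0.44, adjusted p = 0.0287), and Lgmn, legumain, fell to 10.62 and 11.17 against 11.73 and 11.75. Of 16 cathepsins and cystatins, Ctsk and Cstb rose and Ctsc, Ctse and Ctsg fell. The housekeeping cathepsins Ctsb and Ctsd stood at 12.69 and 12.94 against 13.004 and 13.01 and 12.51 and 12.60 against 12.77 and 12.78 and did not pass. Among 20 metalloproteinases and inhibitors, Mmp9 and Mmp14 rose, while Mmp8, the neutrophil collagenase, fell to 5.59 and 6.02 against 8.16 and 8.24, as did Adam10 and Adam15.

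Many oxidative phosphorylation genes rose, each by a small amount. Of 46 genes of oxidative phosphorylation 22 rose and none fell, beside 3.34% and 3.30% of all genes tested, and the median was 0.49. In 43 of them the late arrays lay above the 0 h arrays with no overlap, and in none below, beside 25.1% of all genes tested in either direction. Cyc1, cytochrome c1, was at 8.77 and 9.36 log2 against 8.01 and 7.94 at 0 h (1.09 ± 0.19, adjusted p = 0.00628). Uqcrc2, a core subunit of complex III, was at 10.07 and 10.48 against 9.38 and 9.40 (0.89 ± 0.14, adjusted p = 0.00364). Atp5d, of the ATP synthase, was at 9.72 and 10.04 against 9.14 and 9.18 (0.72 ± 0.13, adjusted p = 0.00698). Leaving out 48 h gave 34 called and leaving out 72 h gave 3. With the first or second 0 h array left out it was 2 or 1, and after centring each array on its median 14.

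Pyruvate entry and the tricarboxylic acid cycle followed the same pattern, with 10 of 29 genes higher and none lower (median 0.47). This list shares members with the oxidative phosphorylation list, Sdhb and Sdhd among them. All 4 genes of the core pyruvate dehydrogenase complex rose: Pdha1 to 9.14 and 9.31 against 8.33 and 8.52, Pdhb to 9.57 and 9.98 against 8.61 and 8.64, Dlat to 8.25 and 8.47 against 7.53 and 7.52 and Dld to 9.96 and 10.00 against 9.37 and 9.29. The last is shared with the 2-oxoglutarate dehydrogenase complex. Cs, citrate synthase, was at 10.82 and 10.89 against 10.22 and 10.29 (0.60 ± 0.10, adjusted p = 0.00605). Sdhb, Sdhc and Sdhd of succinate dehydrogenase rose by 0.92, 0.59 and 0.92 log2. The isocitrate dehydrogenase gene Idh1 was at 9.44 and 10.21 against 9.61 and 9.65 and Glud1, glutamate dehydrogenase, at 10.58 and 10.35 against 10.51 and 10.46, and neither passed. Leaving out 48 h gave 16, leaving out 72 h gave 4, and leaving out an array at 0 h gave 2 or 3.

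Of 29 genes of mitochondrial biogenesis, dynamics and creatine kinase 4 rose (Ppargc1b, Esrra, Slc25a5 and Sod2). Without the 48 h array 8 rose, and without any other single array none did. Ppargc1b (PGC-1β), a coactivator of mitochondrial biogenesis in osteoclasts, was at 6.72 and 7.83 against 5.22 and 5.54 (1.89 ± 0.43, adjusted p = 0.0233). Its partner Esrra was at 7.47 and 7.74 against 7.01 and 7.03 (0.59 ± 0.14, adjusted p = 0.0337). Sod2 was at 9.54 and 9.73 against 9.02 and 8.94, and was higher at 3 and 6 h, at 10.55 and 10.63. Mitochondrial ribosome and translation genes rose in 2 of 33 (Mrps35 and Tufm). In glycolysis none of 21 rose and Hk3, a hexokinase of myeloid cells, fell to 7.87 and 7.69 against 9.07 and 9.25 (-1.38 ± 0.17, adjusted p = 0.000834).

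Iron and heme genes fell in 7 of 24 and rose in 1. Without the 48 h array 6 fell and 3 rose, without the 72 h array 4 fell, and without a 0 h array 3 or 2 fell. Hmox1, the heme oxygenase, fell to 9.35 and 9.42 against 11.20 and 11.23 (-1.83 ± 0.20, adjusted p = 0.000484). Slc11a1, the metal transporter of macrophage phagosomes, fell to 10.66 and 10.81 against 11.35 and 11.40 (-0.64 ± 0.083, adjusted p = 0.00129), while its relative Slc11a2 rose to 7.76 and 8.27 against 7.11 and 7.12 (0.90 ± 0.18, adjusted p = 0.013). Slc40a1, the iron exporter ferroportin, was at 6.89 and 9.54 against 9.21 and 9.32, so that only the 48 h value was low. Among 30 cholesterol and lipid genes 3 rose and 1 fell, with a list median of -0.55. The lipid transport genes Abcg1 and Pltp rose to 9.65 and 9.52 against 7.37 and 7.53 and 11.78 and 12.05 against 10.20 and 10.12. Fabp5 was the third, and Cd36, a lipid scavenger receptor, fell to 9.97 and 9.53 against 11.66 and 11.57 (-1.87 ± 0.13, adjusted p = 4.24e-05).

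**Figure D3:**
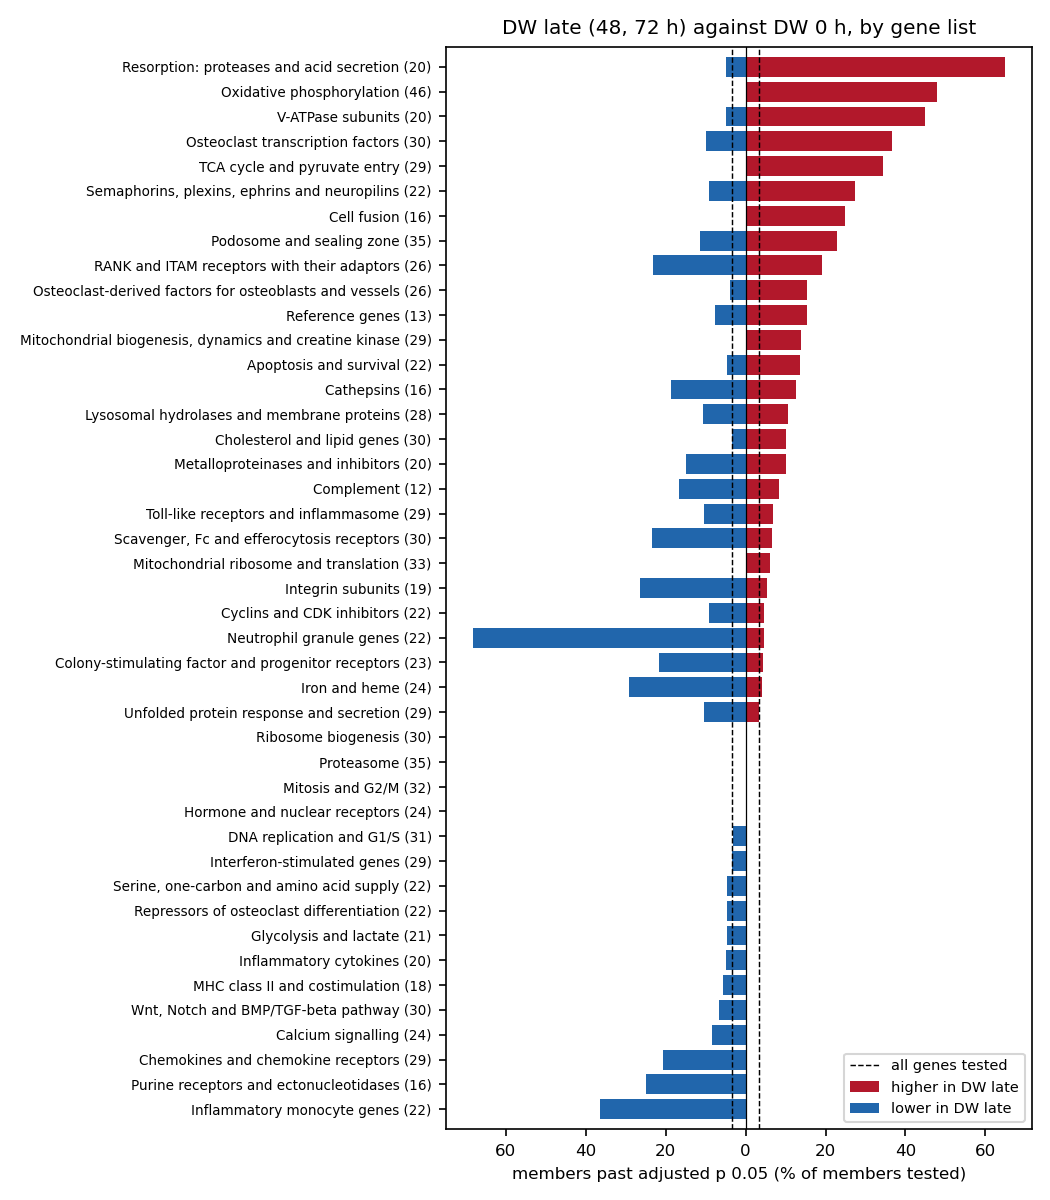
Share of tested members of each of 43 gene lists past the threshold in late DW cells against 0 h (percent, horizontal axis; lower in blue to the left, higher in red to the right, number tested in brackets), with dashed lines at 3.34% and 3.30% for all genes tested. Resorption, oxidative phosphorylation and V-ATPase genes reach farthest to the right, and neutrophil granule and monocyte genes farthest to the left.

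Genes of inflammatory monocytes were lower late, with 8 of 22 fallen and none risen (median -0.89). F13a1, the A chain of coagulation factor XIII, had the most negative change of any gene named, at 5.01 and 5.32 log2 against 10.07 and 10.08 at 0 h (-4.91 ± 0.54, adjusted p = 0.000507). Ly6c2, the surface marker of inflammatory monocytes, was at 5.44 and 3.33 against 8.59 and 8.46 (-4.14 ± 0.56, adjusted p = 0.00174). Chil3, a chitinase-like protein, was at 6.31 and 4.65 against 9.36 and 9.20 (-3.80 ± 0.49, adjusted p = 0.00128). The receptors that guide these cells fell too: Ccr2 to 4.86 and 5.56 against 7.63 and 7.77 and Cx3cr1 to 5.96 and 6.17 against 8.35 and 8.29. Fn1, Cd300e and Itgam made up the rest. Without the 72 h array 10 were lower, without the 48 h array 7, and without either 0 h array 6.

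Neutrophil granule genes fell in 15 of 22, and the 1 that rose was Mmp9, which osteoclasts also make. Leaving out 1 array at a time gave 10 to 13 lower genes. Elane, neutrophil elastase, was at 5.61 and 4.60 log2 against 8.60 and 8.58 (-3.48 ± 0.45, adjusted p = 0.00129), and Mpo, myeloperoxidase, at 4.72 and 4.99 against 7.93 and 7.999 (-3.11 ± 0.43, adjusted p = 0.00198). S100a8, an alarmin subunit, was at 5.62 and 5.26 against 8.36 and 8.32 (-2.90 ± 0.30, adjusted p = 0.000373). This list shares members with the neutrophil markers described above. Padi4, an arginine deiminase of neutrophils, was at 4.89 and 4.73 against 6.98 and 7.16 (-2.25 ± 0.16, adjusted p = 4.24e-05). Camp, Ltf, Lcn2 and Ngp of the secondary granules fell by 1.87 (Camp) to 2.75 (Ngp) log2. The platelet chemokine genes Ppbp and Pf4 fell to 4.61 and 4.95 against 8.80 and 8.68 and to 7.35 and 8.07 against 10.20 and 10.12. Csf3r, the receptor that neutrophils need, was at 5.76 and 7.66 against 6.52 and 6.91 and did not pass.

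Macrophage surface receptors fell in part. Of 30 scavenger, Fc and efferocytosis receptors 7 fell and 2 rose. Without a 0 h array 5 or 4 fell, and without the 48 h array 8 fell and 4 rose. Fcgr1, the high-affinity IgG receptor, fell to 9.03 and 9.65 against 11.14 and 11.13 (-1.80 ± 0.23, adjusted p = 0.00136), Axl, a receptor for dying cells, to 6.84 and 6.53 against 8.07 and 8.19, and Stab1, a scavenger receptor, to 9.99 and 10.50 against 11.58 and 11.69. The lectin genes Clec4a2 and Clec12a rose by 1.31 and 0.88 log2. Some others were high at 72 h alone: Adgre4 at 5.10 and 9.63 against 4.0 and 4.34 and Clec7a, the β-glucan receptor, at 5.46 and 9.50 against 5.80 and 5.87. Colony-stimulating factor and progenitor receptors fell in 5 of 23 and rose in 1. Il7r fell to 6.19 and 5.56 against 8.68 and 8.47 and Cd34, of progenitors, to 4.60 and 4.45 against 5.98 and 6.02, while Csf2rb2, a β chain of the IL-3 receptor, rose by 1.20. Csf1r, the M-CSF receptor, was at 10.76 and 11.87 against 11.48 and 11.50 and did not pass (adjusted p = 0.779).

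Chemokines and their receptors fell in 6 of 29 and none rose, among them Ccl3 at 8.74 and 7.90 log2 against 11.08 and 10.82 (-2.63 ± 0.61, adjusted p = 0.0256) and Ccl6 at 7.61 and 9.02 against 10.22 and 10.07. Without either 0 h array 3 fell. In the Toll-like receptor and inflammasome list 3 of 29 fell and 2 rose. Nlrp3, the inflammasome sensor, fell to 5.84 and 6.12 against 8.04 and 8.10 (-2.09 ± 0.46, adjusted p = 0.0201), as did Tlr5 and Tlr13. Casp4 and Gsdmd, a caspase and its pore-forming substrate, rose by 1.16 and 1.24. Inflammatory cytokines (20 tested), interferon-stimulated genes (29) and MHC class II and costimulation genes (18) each had 1 gene lower and none higher: Osm, Mx1 and Icosl. Of all genes tested 3.30% were lower and 3.34% higher, so these counts lie near that share and say little about the lists. Tnf was at 8.06 and 5.67 against 9.38 and 9.30 and did not pass (adjusted p = 0.382).

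Guidance and coupling factors that osteoclasts use to signal to other bone cells rose in some cases. Of 22 semaphorin, plexin, ephrin and neuropilin genes 6 rose and 2 fell. Without the 48 h array 8 rose, without the 72 h array 4, and without a 0 h array 4 or 3. Sema7a was at 6.71 and 7.13 log2 against 5.01 and 5.14 (1.85 ± 0.17, adjusted p = 0.00024), and Sema4d, which holds back osteoblasts, at 9.45 and 9.51 against 7.94 and 7.85 (1.58 ± 0.24, adjusted p = 0.00356). Plxna2, Plxnd1, Efna2 and Efnb1 rose by 0.62 (Efnb1) to 1.73 (Plxna2). Nrp1, a semaphorin and VEGF co-receptor, fell to 8.05 and 8.67 against 10.39 and 10.33 (-2.00 ± 0.32, adjusted p = 0.00397). Among 26 osteoclast-derived factors 4 rose (Sema4d, Efna2, Pdgfa and Cthrc1) and 1 fell, and 10 were higher without the 48 h array and 1 without the 72 h array or either 0 h array. Igf1 fell to 8.21 and 9.16 against 9.93 and 9.82, and Cthrc1 rose to 5.71 and 6.597 against 5.30 and 5.18. The nucleotide receptors P2ry2, P2ry6, P2ry12 and P2ry13 all fell, by 1.12 (P2ry6) to 2.06 (P2ry12) log2, out of 16 purine genes, of which none rose. Without either 0 h array no purine gene was called.

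Of 22 apoptosis and survival genes 3 rose (Birc3, Birc2 and Traf1) and 1 fell. Without the 48 h array 3 fell, and without any other single array 2 rose and none fell. Birc3 and Birc2, inhibitors of apoptosis, rose to 8.75 and 8.67 against 6.32 and 6.45 and 7.51 and 7.70 against 6.15 and 6.34. Bid, a proapoptotic gene, fell to 6.53 and 5.08 against 7.20 and 7.20. None of 24 hormone and nuclear receptors passed in either direction (limma, 2 at an unadjusted p under 0.05), and Calcr is among them. Of 13 genes often used as references, Rplp0 and Eef2 rose by 0.60 and 0.24 and Hprt fell to 9.34 and 8.86 against 9.80 and 9.76. Actb was at 11.04 and 10.69 against 11.12 and 11.06 and did not pass.

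Cell cycle genes showed how far the 2 late arrays differ, which is given as a description with no test of 72 h against 48 h. The 32 mitosis genes had a mean level of 8.66 and 6.79 in the late cells against 8.71 and 8.72 at 0 h, and the 31 DNA replication genes 8.27 and 6.51 against 8.46 and 8.50. Their median difference of 72 h minus 48 h was -1.92 and -1.82 log2, beside -0.015 for all genes tested. Mki67, the proliferation marker, was at 10.04 and 8.25 against 10.36 and 10.37 (-1.22 ± 0.42, adjusted p = 0.115), and Pcna, the replication clamp, at 10.76 and 8.97 against 11.09 and 10.99 (-1.18 ± 0.51, adjusted p = 0.21). In the comparison of both late arrays with 0 h none of the mitosis genes (limma, 15 at an unadjusted p under 0.05) and 1 replication gene, E2f2, was called. With the 48 h array left out, 31 and 19 were lower (Mki67 at an adjusted p of 0.00029), and with the 72 h array left out none of either list was. Ccnd2, cyclin D2, was low on both late arrays (4.51 and 4.68 against 7.55 and 7.64, -2.995 ± 0.29, adjusted p = 0.000248), and Ccnd3 fell to 7.60 and 6.63 against 8.13 and 8.26.

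Growth-related lists split in the same way. Ribosome biogenesis genes had a mean level of 8.66 and 7.32 against 8.29 and 8.30, with Nop58, a nucleolar protein, at 9.13 and 6.77 against 8.80 and 8.86. Serine, one-carbon and amino acid supply genes were at 8.61 and 7.47 against 8.33 and 8.32, with Asns, asparagine synthetase, at 9.26 and 7.18 against 7.36 and 7.49 and Psat1, of serine synthesis, at 8.12 and 5.82 against 7.81 and 7.81. Myc, a driver of growth genes, was at 9.37 and 7.30 against 8.63 and 8.62 (adjusted p = 0.926). In each case 48 h lay above and 72 h below both 0 h arrays. MHC class II genes ran the other way, with H2-Ab1 at 6.89 and 9.17 against 8.93 and 8.999. Low levels of the growth-related lists were not confined to 72 h. Ribosome biogenesis genes had a mean level of 8.07, 7.86, 7.49 and 8.90 at 3, 6, 12 and 24 h. Serine, one-carbon and amino acid supply genes were at 8.28, 8.14, 7.80 and 8.49 at those times.

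**Figure D4:**
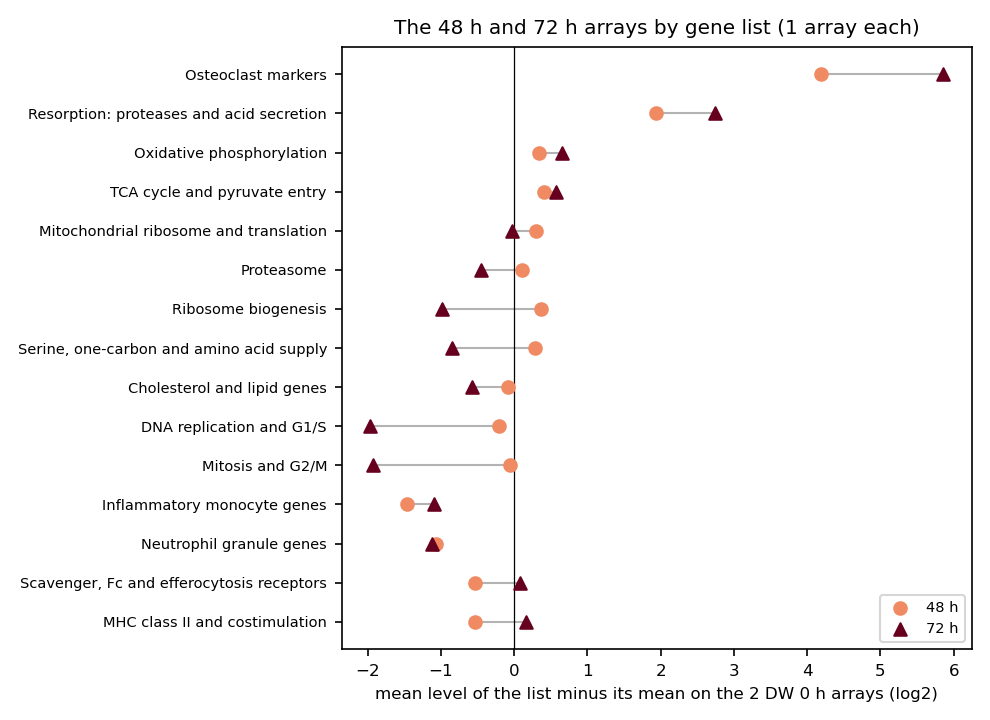
Mean level of 15 gene lists at 48 h (circles) and 72 h (triangles), as the difference from the mean of the list on the 2 arrays at 0 h (log2, horizontal axis), with 1 array per time. Mitosis and DNA replication genes lie near 0 at 48 h and near -2 at 72 h, and osteoclast markers lie above 4 at both times.

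The late cells were also set against the intermediate (12 and 24 h) and early (3 and 6 h) DW arrays, to see which of these differences came late. These comparisons share the late arrays with the one above. The 0 h arrays do not enter their log2 differences. They do enter the p-values, which rest on the spread within all 8 groups of the 16 arrays. Against the intermediate arrays 139 genes were higher (0.895%) and 81 lower (0.522%), and against the early arrays 356 were higher (2.29%) and 376 lower (2.42%). After centring each array on its median, the split against the intermediate arrays was 119 to 109. Leaving out 1 array moved the counts against the intermediate arrays between 30 and 501 higher and between 20 and 523 lower. The lowest came without the 12 h array and the highest without the 48 h array.

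Several genes stayed low up to 12 or 24 h and were high late. Ctsk had 5.76, 6.00, 6.33 and 7.38 log2 at 3, 6, 12 and 24 h, and late cells exceeded the intermediate ones by 5.27 ± 0.44 log2 (adjusted p = 0.000744, limma). Fam102a had 7.20, 7.29, 7.31 and 7.54 at those times and a late excess of 3.25 ± 0.19 (adjusted p = 2.6e-05). Oscar had 3.69, 3.73, 4.03 and 3.88, and the excess was 5.34 ± 0.93 (adjusted p = 0.0182). Of the 9 osteoclast markers the same count, 7, was higher late than in either earlier group. For Fosl2 the late excess was 2.51 ± 0.28 (adjusted p = 0.00166) and for Nfatc1 1.43 ± 0.27 (adjusted p = 0.0278).

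Other genes were already high at 3 h. Mmp14 had 9.02, 9.56, 8.48 and 8.98 at 3, 6, 12 and 24 h, and the late cells did not differ from the intermediate ones past the threshold (1.70 ± 0.52, adjusted p = 0.156). Traf1 had 8.74, 8.996, 8.74 and 9.80 and Birc3 8.91, 9.03, 9.09 and 8.88, with late differences of -0.086 ± 0.41 and -0.28 ± 0.30. Nfkb2 had 9.29, 9.25, 9.17 and 9.11. A further set was high at earlier times and came down again, with late values that did not pass the threshold against 0 h. Acod1, which makes itaconate, was at 10.33 and 9.64 at 3 and 6 h and at 5.63 and 5.02 late, against 5.52 and 5.69 at 0 h (late minus early -4.66 ± 0.66, adjusted p = 0.0031). Clec4e, the lectin Mincle, was at 12.01 and 11.87 and then 8.69 and 7.10, against 8.33 and 8.30 at 0 h (late minus early -4.04 ± 0.60, adjusted p = 0.00376). Cxcl10, a chemokine, was at 11.76 and 11.86 and then 9.33 and 8.30, against 8.16 and 8.48 (-2.99 ± 0.57, adjusted p = 0.0138). Ly6i, whose relatives are near-identical in sequence, was at 8.56 and 7.64 at 12 and 24 h and at 5.05 and 5.73 late (late minus intermediate -2.71 ± 0.49, adjusted p = 0.0218). For Toll-like receptor and inflammasome genes, 10 of 29 were lower late than early and none higher.

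The genes that fell also differed in timing. Ly6c2 had 8.58, 8.90, 8.97 and 8.03 at 3, 6, 12 and 24 h, and the late cells lay -4.12 ± 0.56 log2 from the intermediate ones (adjusted p = 0.00425). S100a8 had 8.31, 8.43, 8.64 and 7.99 (-2.88 ± 0.30, adjusted p = 0.0016). For both, the fall lay after 24 h. Slco2b1, an anion transporter, had 6.596, 5.85, 5.78 and 4.87 and Rasgrp3, an activator of Ras family proteins, 5.86, 5.62, 5.33 and 5.19. Both were low before the late stage, and neither differed from the intermediate arrays past the threshold (-0.0013 ± 0.38 and -0.36 ± 0.21).

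**Figure D5:**
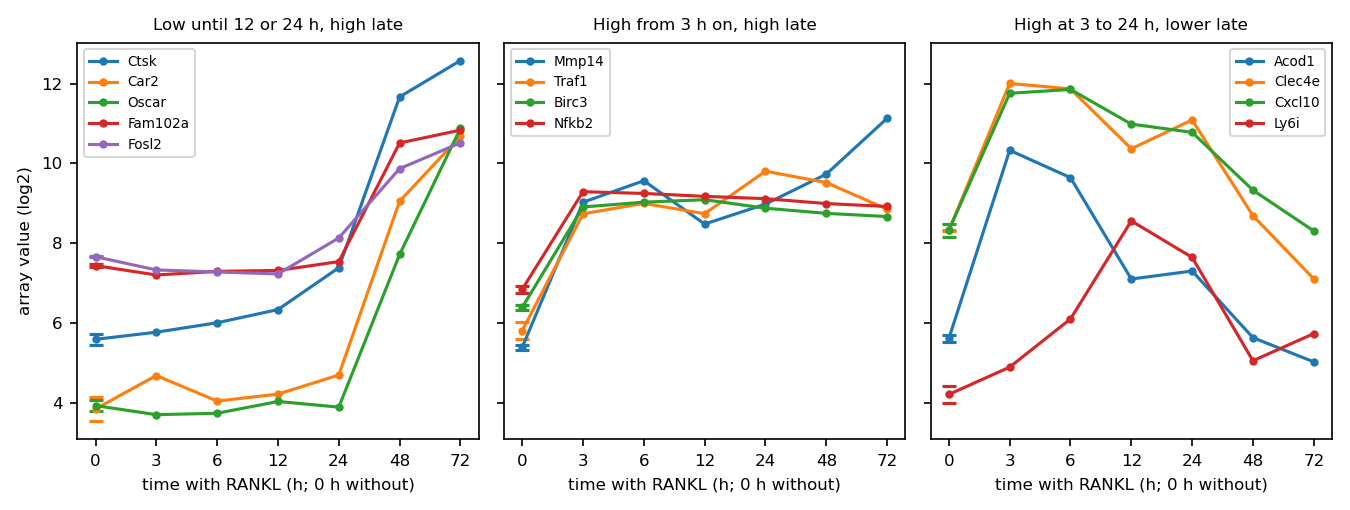
Log2 array value over time with RANKL in DW cells (0 h without RANKL, with both 0 h arrays as dashes and their mean as the point; 1 array at each later time). Ctsk, Car2, Oscar, Fam102a and Fosl2 climb after 24 h, Mmp14, Traf1, Birc3 and Nfkb2 are high from 3 h on, and Acod1, Clec4e and Cxcl10 come down again at the late times.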

How the data were processed

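Gene expression was measured on 16 arrays of bone marrow-derived macrophages, 2 in each of 8 groups. Per the labels' protocols, RNA was biotin-labelled through a GeneChip WT terminal kit. The log2 values of the authors' deposited table were used as they stand; they ran from 0.613 to 13.25, with array medians of 4.84 to 4.93. The normalization between arrays, background correction and centring, and the build used, were not given in the sources used here, and the log2 scale was read from the range of the values. Precision is limited by the number of arrays.

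Of 33793 features, 23521 had 1 gene symbol in the platform annotation, 1814 several and 8458 none here. The feature with the highest mean was kept for each of 22180 genes. The lowest 30% by mean (under 4.34 log2) were left out. limma 3.58.1 in R 4.3.3 fitted 8 group means over 16 arrays (8 residual degrees of freedom) with an intensity trend, and two-sided p-values were Benjamini-Hochberg adjusted over 15526 genes with a threshold of 0.05. The fit was run on simulated arrays with independent noise and no change over time within a group. That run cannot speak for the p-values of real groups whose arrays differ in time. Every group but the 0 h one pairs 2 different times, so the spread in the fit holds time. This includes the 48 h and 72 h arrays, which form 1 group although their times differ. Those 2 arrays were compared with each other by values alone.

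The members, the 43 pathway and 12 marker lists and the tests were chosen with earlier results of these data known. Of 1175 listed genes 1085 were measured and 1034 tested. Lists are described by counts and medians, without a set test. The lists not described in the report gave 1 higher and 2 lower of 22 cyclins and inhibitors, 0 and 0 of 35 proteasome genes (limma, 2 at an unadjusted p under 0.05), 1 and 3 of 29 unfolded protein response genes, 0 and 2 of 30 Wnt, Notch and TGF-β genes, 1 and 2 of 12 complement genes, and neither direction in mast cell markers. Of the erythroid markers 1 was measured, under the filter. Named genes were the 25 highest and 25 lowest of the comparison with 0 h, the 10 highest and lowest of each other comparison, up to 8 members of each list by p, the 8 called genes with the largest difference between 72 h and 48 h in either direction, and a set of anchors. Other list members (such as paralogs, receptor partners and members that did not pass) were named for their role after their values were seen: Acp2, Adgre4, Atp6ap2, Atp6v0a2, Atp6v1c1, Atp6v1d, Bhlhe41, Cd47, Cd81, Clcn7, Clec7a, Csf3r, Fgr, Fos, Glud1, Gsn, Idh1, Itgav, Lilrb4a, Mef2d, Mitf, Myc, Ostm1, Pirb, Plekhm1, Ptk2b, Pxn, Rab27a, Rab38, Rab3d, Rab7, Rac1, Rel, Rela, Relb, Rhou, Sdhc, Sirpa, Slc40a1, Slc4a2, Syk, Syt7, Traf6 and Tyrobp. Alternatives changed the filter, the normalization, the variance model, the arrays fitted, the choice of feature and the promoter window.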

Additional observations from a re-analysis of the deposited data

Results flagged for a closer look

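Several lists and genes had a 48 h value beyond both 0 h arrays on one side and a 72 h value beyond both on the other. Each time is 1 array, so these differences between 72 h and 48 h were not tested. As mean levels of lists, 72 h minus 48 h in log2, the difference was -1.35 for ribosome biogenesis, -1.13 for serine, one-carbon and amino acid supply, -0.56 for proteasome and -0.32 for mitochondrial ribosome genes, all with 48 h above and 72 h below 0 h. The other direction held for MHC class II and costimulation (0.70), scavenger, Fc and efferocytosis receptors (0.61), colony-stimulating factor and progenitor receptors (0.61), lysosomal hydrolases and membrane proteins (0.54), integrin subunits (0.44), iron and heme (0.43), hormone and nuclear receptors (0.38), complement (0.36) and calcium signalling (0.29).

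Among the genes named in the text the same held, again with no test. The 72 h minus 48 h difference in log2 value was below 0, with 48 h above the 0 h arrays, for Asns (-2.08), Atp6v0a2 (-0.36), Clec4e (-1.59), Glud1 (-0.22), Myc (-2.07), Nop58 (-2.36) and Psat1 (-2.31). It was above 0, with 48 h below the 0 h arrays, for Adgre1 (0.96), Clec7a (4.04), Csf1r (1.11), Csf3r (1.91), H2-Ab1 (2.28), Idh1 (0.77), Ostm1 (0.87), Plekhm1 (0.83), Sirpa (0.17), Slc40a1 (2.65) and Traf6 (0.87). The macrophage genes in that second set, Adgre1 and Csf1r, stood lower at 48 h and higher at 72 h than at 0 h.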

How the results depend on the processing

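Among the 171 genes named in the text that passed against 0 h, none turned its direction under any alternative. After median centring 163 still passed, with quantile normalization 166, with no intensity trend 165, with a robust fit 167, with the mean of a gene's features 166 and with no filter 154. With 1 array left out 153 (48 h), 105 (72 h), 82 (first 0 h) and 80 (second 0 h) still passed. Counts of all genes under the settings named before that stayed within 1.5 times those reported. The arrays fitted mattered more. With only the 8 DW arrays 144 genes were higher and 176 lower against 0 h, 15 and 10 against the intermediate arrays, and 69 and 104 against the early arrays. With only the 2 groups compared the counts were 62 and 53, then 0 and 0 (limma, with 732 genes at an unadjusted p under 0.05), and 20 and 18; fewer arrays and residual degrees of freedom enter these fits. Leaving out 1 array gave 117 to 936 higher and 134 to 1243 lower against 0 h, 30 to 501 and 20 to 523 against the intermediate arrays, and 68 to 744 and 81 to 981 against the early arrays. The highest counts came without the 48 h array each time, and the cause was not tested. Among named genes that did not pass, the log2 difference from 0 h changed sign when 1 array was left out, with these ranges: Csf3r (-0.96 to 0.95), Glud1 (-0.13 to 0.091), Rela (-0.080 to 0.058), Syt7 (-0.43 to 0.084), Adgre1 (-0.72 to 0.24), Asns (-0.24 to 1.84), Cd68 (-0.10 to 0.020), Csf1r (-0.74 to 0.38), Cxcl10 (-0.020 to 1.00), H2-Ab1 (-2.07 to 0.20), Irf8 (-1.58 to 0.034), Rab7 (-0.055 to 0.018), Sirpa (-0.11 to 0.061), Slc40a1 (-2.38 to 0.28), Acod1 (-0.59 to 0.020), Atp6v0a2 (-0.26 to 0.099), Cd47 (-0.0042 to 0.12), Clec4e (-1.22 to 0.37), Clec7a (-0.38 to 3.66), Idh1 (-0.19 to 0.57), Myc (-1.33 to 0.74), Nop58 (-2.06 to 0.30), Ostm1 (-0.18 to 0.69), Plekhm1 (-0.27 to 0.56), Psat1 (-1.99 to 0.31) and Traf6 (-0.069 to 0.80). Csf3r was at 0.053 after quantile normalization. Shares of promoters with a motif are smaller, or remain 0, in the last 150 bases, as the window is shorter. No paired analysis was possible because the labels give the late and 0 h arrays no shared replicate number. The number of arrays, 2 a group with the late ones at different times, limits the precision.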
